A study of Mus musculus with 4 samples.

Results

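The miR-26 family was followed in the small RNA of the mouse brain cortex. Its members were taken by name, as every mature miRNA with the number 26, whatever its letter, copy or arm, which gave 5 of the 942 mature miRNAs in the deposited table. They are the guide arms miR-26a-5p and miR-26b-5p and the passenger arms miR-26b-3p, miR-26a-2-3p and miR-26a-1-3p. The cortex of 4 mice of the strain B6C3, all 9 months old, had been sequenced. WT1 and WT2 were wild-type and APP3 and APP4 were APPswe/PS1deltaE9 double transgenic mice (hereafter AD mice). Their transgenes, with expression directed to neurons, are Mo/HuAPP695swe, a part-human amyloid precursor protein with the Swedish mutation, and PS1-deltaE9, presenilin 1 with an exon deletion. WT1 and APP4 formed one sibling pair and WT2 and APP3 the other, so each sibling pair holds a single mouse of each genotype. Whole cortex was used, in which fewer cells of a type and less of a miRNA per cell cannot be told apart. WT1 and WT2 had 26085776 and 22078713 miRNA reads, APP3 and APP4 had 21266937 and 19048747, and levels are given as reads per 1000000 of this sum (RPM). At these depths, 3 reads correspond to 0.115 to 0.157 RPM.

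A miRNA is cut from a hairpin transcript as a duplex of 2 arms. The guide arm is loaded into an Argonaute protein and pairs through its seed, bases 2 to 8, with target mRNAs, while the passenger arm is mostly degraded. miR-26 is made in most mammalian tissues, and its hairpins lie within the Ctdsp genes, which encode small phosphatases of the C-terminal domain of RNA polymerase II. These phosphatases act with the repressor REST to hold neuronal genes silent outside neurons, and miR-26 is known to repress Ctdsp mRNAs and the chromatin enzyme Ezh2. The question put to the family here was whether its levels, arms and copies differed between AD and wild-type cortex.

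The mature sequences (RefSeq, GRCm38.p6, 5′ to 3′, seed in capitals) show how little separates the guides, and which passengers share a seed. All 5 members were matched by name.
miR-26a-5p: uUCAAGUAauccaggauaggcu
miR-26b-5p: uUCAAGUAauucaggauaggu
miR-26b-3p: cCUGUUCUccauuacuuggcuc
miR-26a-2-3p: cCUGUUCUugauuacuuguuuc
miR-26a-1-3p: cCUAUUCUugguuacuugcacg

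Both guides carry the seed UCAAGUA, which among 1679 mature mouse miRNA names of the reference belongs to these 2 alone. Counted from 1 at the 5′ end, miR-26b-5p differs from miR-26a-5p by C11U and C21U over the 21 bases they share, and it lacks the last base of the 22 of miR-26a-5p. The study's methods speak of variant reads, altered in length or base, beside the exact ones, so how many reads of the far more abundant miR-26a-5p were counted on miR-26b-5p is not known. The passengers divide otherwise. miR-26b-3p and miR-26a-2-3p share the seed CUGUUCU with 2 miRNAs outside the family, neither of which is in the table, and differ by U9C, G10C, U19G and U20C with miR-26a-2-3p as the reference. miR-26a-1-3p has the seed CUAUUCU, found in no other name, and differs from miR-26a-2-3p by G4A, A11G, U19C, U20A, U21C and C22G. The passengers of the 2 copies of miR-26a can thus be told apart in the reads, whereas their guides are identical.

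The hairpins from which the arms are cut are shown with both mature arms in capitals (RefSeq, GRCm38.p6, plus strand).
Mir26a-1, chr9:119031796-119031885: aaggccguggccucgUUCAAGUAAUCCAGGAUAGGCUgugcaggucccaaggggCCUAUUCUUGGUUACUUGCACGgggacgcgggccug
Mir26a-2, chr10:126995530-126995613: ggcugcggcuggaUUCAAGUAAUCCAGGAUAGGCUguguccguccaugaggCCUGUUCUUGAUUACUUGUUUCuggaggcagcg
Mir26b, chr1:74394310-74394394: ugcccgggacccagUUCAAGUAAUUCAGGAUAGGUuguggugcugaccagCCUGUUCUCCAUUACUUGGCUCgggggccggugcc

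Each hairpin lies on the strand of its host gene in the GENCODE vM21 annotation of the same build. Mir26a-1 lies in intron 5 of 7 of the principal transcript of Ctdspl, Mir26a-2 in intron 5 of 7 of Ctdsp2 and Mir26b in intron 4 of 6 of Ctdsp1. For Mir26a-2 the term intronic holds for 1 of the 4 annotated transcripts of Ctdsp2, since the hairpin falls in an exon of 2 others and outside the fourth. The host mRNAs were not measured in these libraries.

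miR-26a-5p was the third most abundant miRNA in every library. Its level was 63786 and 77922 RPM in WT1 and WT2, and 69955 and 78105 RPM in APP3 and APP4, so that it took from 6.38% to 7.81% of all miRNA reads. WT1 was the lowest mouse, WT2 and APP4 were nearly level, and the genotypes overlapped, with a mean of 70854 ± 9996 RPM in the WT mice and 74030 ± 5763 in the AD mice (SD, n = 2 each). In each library it stood well below miR-181a-5p, at 112357 to 149939 RPM, and well above the next miRNA, which was miR-9-5p at 36670 RPM in WT1 and miR-22-3p at 38743 to 49942 RPM in the others. Its place in the order was therefore not near a tie in any mouse.

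miR-26b-5p, the guide with the same seed, was read far less often. The WT mice had 2831 (WT1) and 2901 RPM (WT2), and the AD mice 2771 (APP3) and 3172 RPM (APP4), at ranks 45 to 47. In RPM, APP4 was the highest and APP3 the lowest mouse, so the AD mice enclosed both WT mice. This order depends on the scaling, as given below. The mean was 2866 ± 49.9 RPM in the WT mice and 2972 ± 283 in the AD mice (SD, n = 2 each). Its neighbours in the order changed from library to library and lay close to it, such as miR-138-5p with 3174 RPM in APP4.

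The 3 passenger arms were all below 10 RPM. miR-26b-3p was read 135 and 199 times in WT1 and WT2, and 182 and 143 times in APP3 and APP4, which in that order is 5.18, 9.01, 8.56 and 7.51 RPM, with WT1 lowest and WT2 highest. miR-26a-2-3p had 116, 90, 100 and 77 reads in the same order, or 4.45, 4.08, 4.70 and 4.04 RPM. miR-26a-1-3p had 55, 34, 45 and 30 reads, or 2.11, 1.54, 2.12 and 1.57 RPM. For the copies of miR-26a both genotypes thus held a higher and a lower mouse, and the 95% Wilson intervals of all 4 libraries overlapped for each of these passengers. The intervals cover counting error only, since PCR copies of a molecule are not independent.

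**Figure D1:**
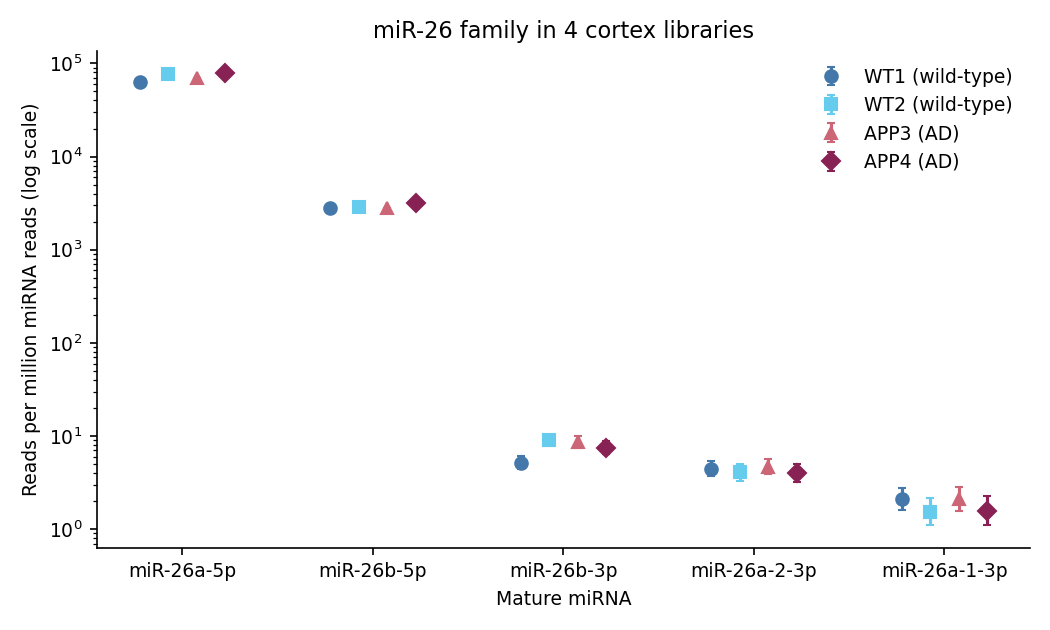
Level of the 5 family members in each library, in RPM on a log scale. Points are single mice (2 wild-type, 2 AD) with 95% Wilson intervals of counting error. The guides stand orders of magnitude above the passengers, miR-26a-5p at 63786 to 78105 RPM and miR-26a-1-3p at 1.54 to 2.12 RPM. In RPM the mice of both genotypes overlap for every member.

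The order of the members by level was the same in the 4 libraries, miR-26a-5p, miR-26b-5p, miR-26b-3p, miR-26a-2-3p and miR-26a-1-3p. The steps between these neighbours exceeded their counting intervals in every library, with the exception of miR-26b-3p and miR-26a-2-3p in WT1, where 5.18 RPM (4.37 to 6.12) and 4.45 RPM (3.71 to 5.33) did not separate. Ligation and amplification favour some small RNAs over others and were not corrected, so such comparisons are of reads and not of molecules.

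The guides varied little between the mice. The SD of the log2 level over the 4 libraries was 0.086 for miR-26b-5p and 0.14 for miR-26a-5p, against a median of 0.18 among the 74 miRNAs whose mean reached 1000 RPM. Only 4 of these 74 had a smaller SD than miR-26b-5p, and 15 had a smaller one than miR-26a-5p. Counting alone would give an SD of 0.0057 and 0.0011, so nearly all of the spread of the guides lay between the libraries and not in the depth. Among the 175 miRNAs with a mean of 1 to 10 RPM and reads in all libraries, the median SD was 0.30. miR-26b-3p varied more than that, with 0.36 against 0.11 from counting, whereas miR-26a-2-3p, with 0.10 against 0.15, and miR-26a-1-3p, with 0.25 against 0.23, had a spread close to or below that of counting.

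**Figure D2:**
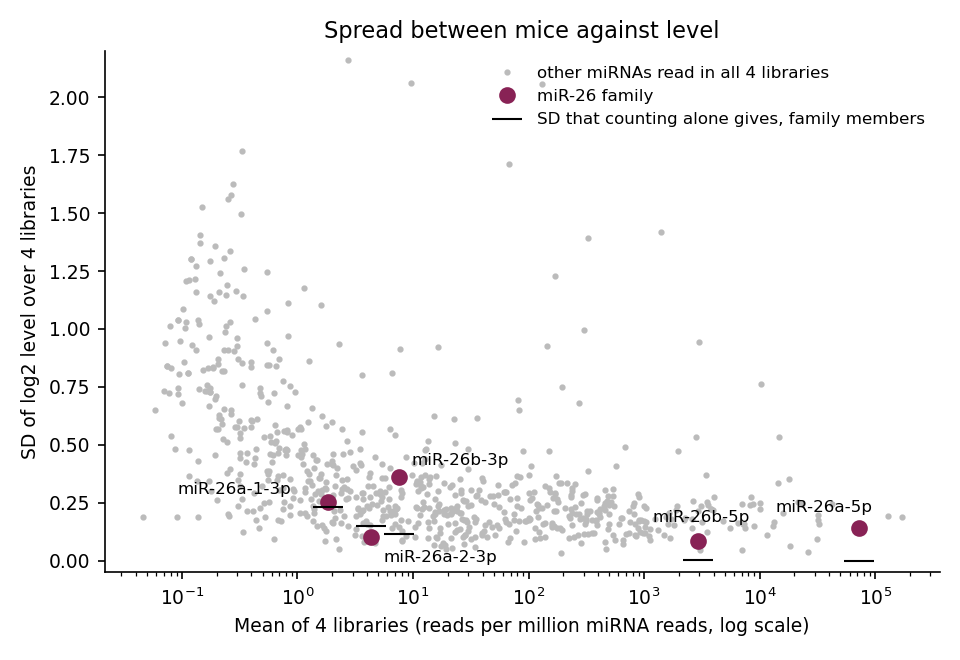
SD of the log2 level over 4 libraries against the mean level (log axis) for the 760 miRNAs read in all libraries, of which 5 lie above the axis. Large points are the miR-26 family and dashes the SD that counting alone gives for them. miR-26b-5p (0.086) and miR-26a-5p (0.14) lie low among abundant miRNAs, and miR-26b-3p (0.36) lies well above its counting SD of 0.11.

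Ratios within a library do not depend on how the libraries are scaled. For each read of miR-26b-5p there were 22.5 and 26.9 reads of miR-26a-5p in WT1 and WT2, and 25.2 and 24.6 in APP3 and APP4. Both AD mice lay between the WT mice. The mean ratio was 24.7 ± 3.06 in the WT mice and 24.9 ± 0.44 in the AD mice (SD, n = 2 each), a difference far below the spread of the WT mice. On the log2 scale the largest difference of this ratio was that between the WT mice, 0.25 (WT2 minus WT1, counting SE 0.0079), followed by 0.13 for APP4 minus WT1 and -0.090 for APP3 minus WT2.

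The passenger share differed between the hairpins more than between the mice. Among the WT mice the 3p arm held 0.182% of the miR-26b reads in WT1 (95% Wilson interval 0.154 to 0.216) and 0.310% in WT2 (0.270 to 0.356). Among the AD mice it held 0.308% in APP3 (0.266 to 0.356) and 0.236% in APP4 (0.2005 to 0.278). WT1 and WT2 did not overlap in their intervals, and the AD mice lay between them. For miR-26a, with both copies summed, the share was 0.0103% and 0.0072% in WT1 and WT2, and 0.0097% and 0.0072% in APP3 and APP4. Passenger reads were thus more frequent for miR-26b than for miR-26a in every library, with intervals that did not overlap. Over 170 pairs of arms with a summed mean of at least 50 RPM, the lesser arm held a median of 2.25%, and 48 pairs were more one-sided than miR-26b and 8 more than miR-26a.

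The passengers give the only view of the 2 copies of miR-26a, whose guides are identical. miR-26a-2-3p made up 67.8% and 72.6% of their reads in WT1 and WT2, and 69.0% and 72.0% in APP3 and APP4, with 107 to 171 reads behind each value and intervals that all overlapped. Over the libraries together it was 383 of 547 reads, or 70.0% (95% Wilson interval 66.05 to 73.7). The means were 70.2% ± 3.35 in the WT mice and 70.5% ± 2.12 in the AD mice (SD, n = 2 each). This is the balance of the passenger reads of the 2 hairpins, which need not be that of their guides.

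**Figure D3:**
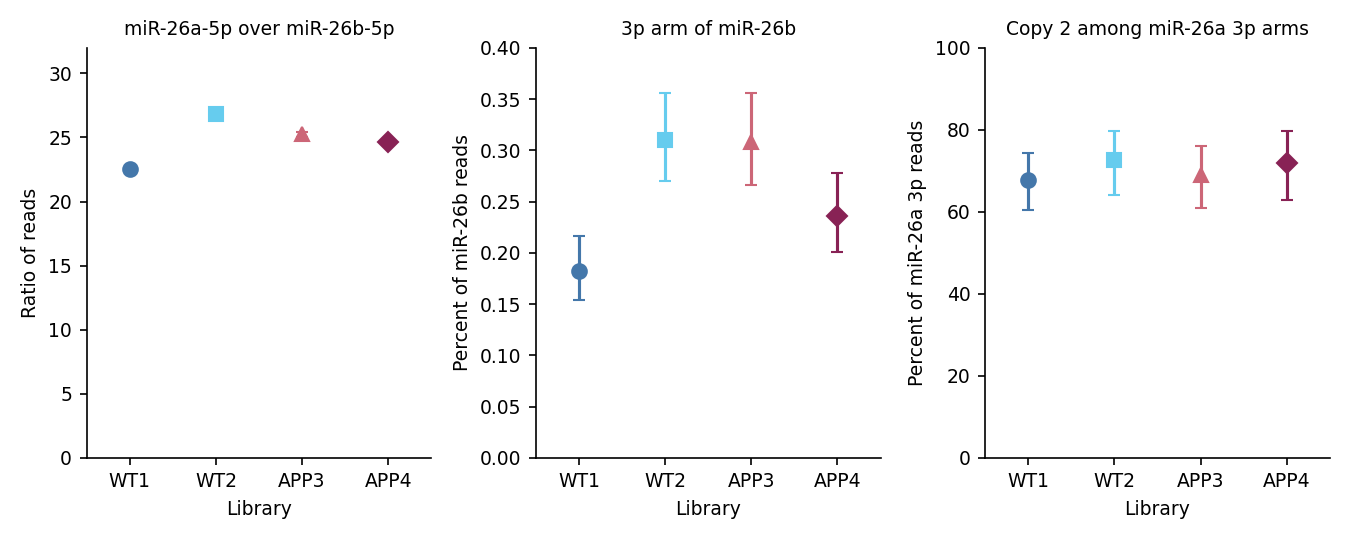
Ratios within each library, for miR-26a-5p reads over miR-26b-5p reads (left), the 3p arm as a percent of miR-26b reads (middle) and copy 2 as a percent of miR-26a passenger reads (right). Points are single mice and bars 95% counting intervals. In the left and middle panels both AD mice lie between the WT mice, and in the right panel the values run from 67.8% to 72.6% with overlapping bars.

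Within the sibling pairs, the reads of each miRNA in both libraries were set against all other miRNA reads in Fisher's exact test (two-sided). A miRNA was called where its false discovery rate (FDR, Benjamini-Hochberg, over all miRNAs read in the pair) was under 0.05 and its change reached 1.5-fold, the limits of the study. What such a test compares is a pair of libraries, not the genotypes. Between APP4 and WT1, 0 of the 5 members were called, where 11.6% of the 899 miRNAs tested were called. Between APP3 and WT2 it was 0 of 5, where 6.81% of 896 were called. At these limits the raw counts gave 104 and 61 calls in the pairs, more than the study lists. Scaled to 1000000 reads there were 32 and 23, so the shares depend on the depth that enters the test. By the FDR alone, 3 members passed in the first pair, where 40.3% of all miRNAs did, and 2 in the second, where 36.0% did.

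Scaled to total miRNA reads, the guides moved in opposite directions in the sibling pairs, which with TMM library sizes held for miR-26a-5p and not for miR-26b-5p. miR-26a-5p was 22.4% higher in APP4 than in WT1, a log2 fold change of 0.29 (counting SE 0.0016), while in APP3 it fell by 10.2% from WT2, with -0.16 (SE 0.0016). In both pairs the FDR of Fisher's exact test was too small to be represented. miR-26b-5p changed by 0.16 (SE 0.0079, FDR 1.44e-94 in Fisher's exact test) in the first pair and by -0.066 (SE 0.0082, FDR 5.89e-15) in the second. Over the 252 miRNAs whose mean reached 50 RPM, the median absolute log2 fold change was 0.26 in the first pair and 0.19 in the second. miR-26a-5p lay near these medians, with 141 and 103 of the 252 having a smaller change, and miR-26b-5p below them, with 88 and 51. The direction in the first pair also depended on the scaling. With TMM, which sets library sizes from the bulk of the miRNAs, all log2 fold changes in that pair moved by -0.25, which left miR-26a-5p at 0.039 and turned miR-26b-5p to -0.089. In the second pair TMM moved them by -0.02, and both guides stayed lower in APP3, at -0.17 and -0.084.

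The passengers had too few reads for small differences to be seen. miR-26b-3p was 1.45-fold higher in APP4 than in WT1 (log2 fold change 0.54, SE 0.17, FDR 0.0068 in Fisher's exact test), just under the limit of 1.5-fold, and with TMM the difference was 0.28 with an FDR of 0.228. In the other pair it was -0.074 (SE 0.15, FDR 0.813). For miR-26a-2-3p the log2 fold changes were -0.13 (SE 0.21) and 0.21 (SE 0.21), and for miR-26a-1-3p -0.41 (SE 0.33) and 0.45 (SE 0.33). None of these 4 values passed Fisher's exact test (FDR 0.354 to 0.716), and their 95% intervals reached from -1.05 to 1.09. TMM gave -0.39 and 0.19 for miR-26a-2-3p, and -0.66 and 0.44 for miR-26a-1-3p. The -0.66 was past 1.5-fold, but none passed Fisher's exact test (FDR 0.102 to 0.605).

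Mice of one genotype differed as well. Between WT2 and WT1, 1 of the 5 members was called, where 10.1% of 879 miRNAs were, and between APP4 and APP3 0 of 5, where 8.05% of 907 were. By the FDR alone it was 3 of 5 members between the WT mice, where 40.5% of all miRNAs passed, and 2 of 5 between the AD mice, where 35.2% did. The member called was miR-26b-3p, 1.74-fold higher in WT2 than in WT1 (log2 fold change 0.80, SE 0.16, FDR 1.93e-06 in Fisher's exact test), and it remained called with TMM at 0.69. Scaled to total miRNA reads, miR-26a-5p differed by 0.29 between the WT mice, the same size as between APP4 and WT1, and by 0.16 between the AD mice. miR-26b-5p differed by 0.036 and 0.19. With TMM the sizes for miR-26a-5p were no longer the same, at 0.18 between the WT mice and 0.039 between APP4 and WT1. The comparisons share their 4 libraries, and for miR-26a-5p and miR-26b-3p the largest differences had WT1 as the lower library.

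**Figure D4:**
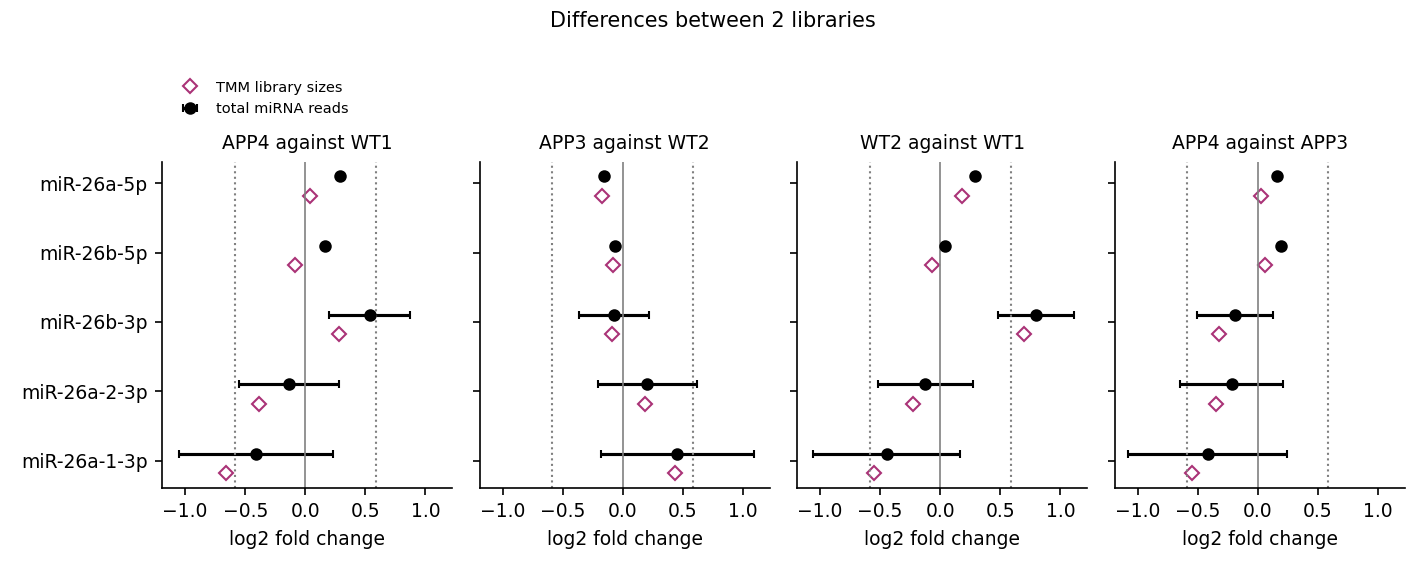
Log2 fold changes of the 5 members between 2 libraries, in the sibling pairs (left panels) and between mice of one genotype (right panels). Filled points are scaled to total miRNA reads with 95% counting intervals, open diamonds use TMM library sizes, and dotted lines mark 1.5-fold. The filled point of miR-26b-3p between WT2 and WT1, at 0.80, is the only filled one past the dotted lines. The open diamonds past them are that of miR-26b-3p between WT2 and WT1, at 0.69, and of miR-26a-1-3p between APP4 and WT1, at -0.66.

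With the mice as replicates, no member of the family was called between the genotypes. In edgeR's quasi-likelihood test over 4 mice with Benjamini-Hochberg adjustment, 0 of the 5 members passed, as did 0 of the 623 miRNAs tested (0.0%), of which 36 had an unadjusted p under 0.05. DESeq2 also called 0. The log2 fold change of AD against WT was -0.070 for miR-26a-5p (SE 0.20, 95% interval -0.54 to 0.40, adjusted p = 0.986 in edgeR) and -0.087 for miR-26b-5p (SE 0.17, -0.49 to 0.32, adjusted p = 0.972 in edgeR). These intervals hold changes from 0.687-fold to 1.32-fold and from 0.712-fold to 1.25-fold, so a change of the guides within them cannot be told from none with 2 mice per genotype. Without TMM both guides were on the other side of 0, at 0.063 and 0.052.

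The passengers were as undecided, with wider intervals. miR-26b-3p had a log2 fold change of 0.064 (SE 0.28), miR-26a-2-3p of -0.096 (SE 0.24) and miR-26a-1-3p of -0.12 (SE 0.34), with adjusted p from 0.977 to 0.995 in edgeR. In RPM, 0 of the 5 members had both AD mice above, or both below, the WT mice, where 36.0% of the 623 miRNAs had. The overlap of miR-26b-5p was lost with TMM library sizes, where both AD mice were below both WT mice. Its log2 fold change against WT1 was then -0.070 for WT2 and -0.089 for APP4, and APP4 was above APP3 by 0.064. The share of all miRNAs without overlap was not counted with TMM. An exact permutation test of 2 against 2 mice cannot give a two-sided p below 0.333. When the sibling pair was added as a block, no member passed.

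**Figure D5:**
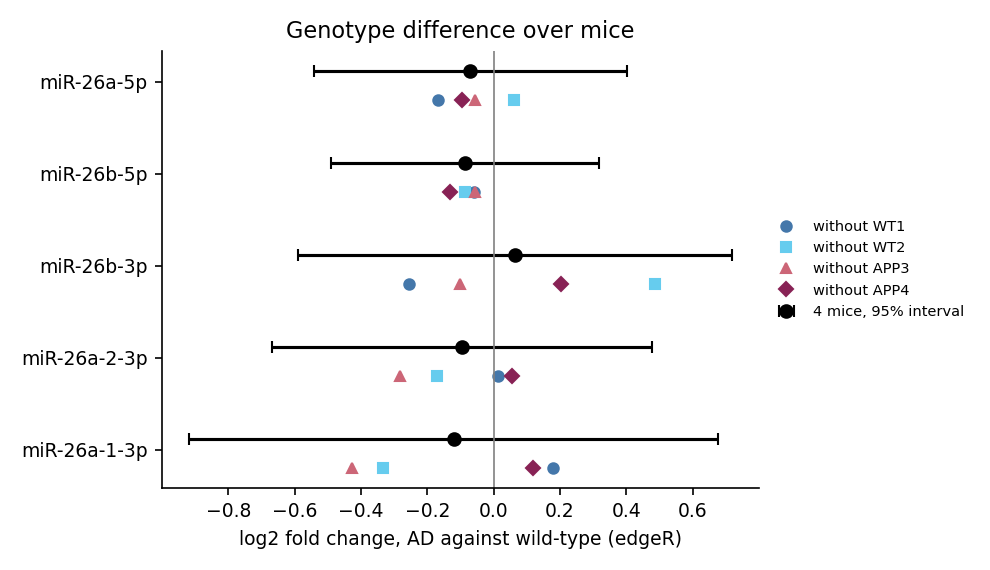
Log2 fold change of AD against wild-type mice in edgeR for each member. Black points with bars are the fit over 4 mice with 95% intervals, and coloured symbols are the fits without the mouse named. All intervals span 0, and for miR-26b-3p the value runs from -0.25 without WT1 to 0.49 without WT2.

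The miRNAs whose pattern over the 4 libraries was most like that of a guide were found by the root mean square distance of centred log2 levels, which does not depend on the scaling, among 251 other miRNAs above the same 50 RPM. Nearest to miR-26a-5p were miR-582-5p (0.023), miR-770-3p (0.026) and miR-27a-3p (0.033), each with WT1 lowest in RPM, against a median distance of 0.19. Nearest to miR-26b-5p were miR-384-5p (0.017), miR-30d-5p (0.032) and miR-382-3p (0.037), each with APP4 highest in RPM, against a median of 0.16. Unlike the distance, the library that is highest or lowest depends on the scaling. The guides themselves were 0.091 apart, which placed miR-26b-5p 28th in the order around miR-26a-5p and miR-26a-5p 31st around miR-26b-5p. With 4 libraries such likeness is a description only.

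The miR-26 hosts belong to the REST circuit, so miRNAs that REST is known to repress or that oppose it were set beside the family as a list of 15, among them miR-124 and miR-9, which promote neuronal identity. Of the 15, 1 was called higher between APP4 and WT1 (miR-132-5p, log2 fold change 0.59), 1 higher between APP3 and WT2 (miR-137-5p, 0.61) and none lower, where 11.6% and 6.81% of all miRNAs were called. Between the WT mice 1 was called (miR-124-3p, 0.59), where 10.1% of all miRNAs were. Their median log2 fold change was 0.37 and 0.046 in the sibling pairs, beside 0.21 and 0.054 over all miRNAs tested. With TMM the list's medians were 0.11 and 0.029, but the medians over all miRNAs moved by the same -0.25 and -0.02. Of the list, 0 and 2 members were then called, where 85 of 899 and 62 of 896 miRNAs were. The 2 were miR-137-5p, higher at 0.59, and miR-212-5p, lower at -0.59. miR-124-3p had 7183 and 10834 RPM in WT1 and WT2, and 8556 and 8369 RPM in APP3 and APP4, with WT1 lowest as for miR-26a-5p. miR-9-5p had 36670, 29300, 29940 and 34938 RPM in the same order, with WT1 highest. In edgeR 0 of the 14 list members that were tested passed.

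A further list held 12 arms cut from introns of host genes that have paralogs, such as miR-103-3p and miR-107-3p of the Pank genes. Whether each paralog also holds a copy, as for miR-26, was not checked. In the sibling pairs 3 and 2 of the 12 were called, all higher in the AD mouse, where 11.6% and 6.81% of all miRNAs were called in either direction. Of the same 12, 1 was called between the WT mice (miR-128-2-5p) and 1 between the AD mice (miR-33-5p, higher in APP4). Over all miRNAs the shares called there were 10.1% and 8.05%. Of those called in the sibling pairs, miR-211-5p and miR-33-5p, the latter in an intron of the sterol regulator Srebf2, were called in both. miR-211-5p had 15.7 and 17.0 RPM in WT1 and WT2, and 33.3 and 25.6 RPM in APP3 and APP4. miR-33-5p had 4.60, 4.26, 6.68 and 10.03 RPM in the same order, so that for both the genotypes did not overlap, as for 36.0% of the miRNAs tested. With TMM the log2 fold change of miR-211-5p between APP4 and WT1 was 0.45, under the limit of 1.5-fold. Neither passed in edgeR (adjusted p = 0.768 for each). The median log2 fold changes of the list in the sibling pairs were 0.27 and 0.085, beside 0.21 and 0.054 over all miRNAs tested. TMM left the list's medians at 0.016 and 0.067, and moved those over all miRNAs by the same amounts as the list.

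Marker miRNAs were summed to check the tissue. The 6 brain miRNAs, among them miR-9-5p and miR-128-3p, reached 78882 to 86310 RPM in every library. The 10 miRNAs of choroid plexus and other epithelia summed to 8788 RPM in APP4 against 4308 to 4964 in the others, with 8 of the 10 highest in APP4. The exceptions were miR-204-5p, lowest in APP4 at 2900 RPM against 3472 to 4370, and miR-211-5p, highest in APP3. Most of the sum in the other libraries was thus miR-204-5p. The higher sum in APP4 lay in other miRNAs of the list, so it does not speak for choroid plexus or for each member. The 4 vascular miRNAs in the table summed to 24404 RPM in APP4 against 30007 to 32445. Most of that was miR-143-3p, with a mean of 21404 RPM over the libraries, and 1 of the 4 was highest in APP4. No defining marker of these lists was at 0 in all libraries. In RPM, APP4 was also the mouse with the highest miR-26b-5p and, just above WT2, with the highest miR-26a-5p. Under TMM miR-26b-5p was lower in APP4 than in WT1, at -0.089. The part of the epithelial and vascular miRNAs in these levels was not tested. The 4 erythroid miRNAs summed to 3223 RPM in APP4, the lowest, and to 4001 to 4642 in the others. Nearly all of that was miR-486-5p, with a mean of 3813 RPM over the libraries against 149 for miR-451a. Of the 4, 1 was highest in APP4, so the sum does not speak for each of them. The remaining lists reached 1588 to 1805 RPM for 6 leukocyte and microglial miRNAs, 1445 to 1694 for 3 hepatic, 96.8 to 124 for 4 muscle and 1479 to 1847 for 3 oligodendrocyte miRNAs. Nearly all of the hepatic sum was miR-192-5p, with a mean of 1490 RPM over the libraries, while miR-122-5p had 2.30 RPM.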

How the data were processed

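Small RNA of 4 cortex samples was sequenced. After trimming and quality filters, the authors used Bowtie and the CLC workbench to match reads to mouse miRBase and to count them, exact and variant, on mature miRNAs. The deposited table gives raw counts for 942 mature miRNAs, and a deposited RPM (headed TPM) relative to clean reads. Per the labels, the submitters' processing notes name CASAVA 1.8 and mm9, and the study's methods name GRCm38. The table holds no coordinates, and those given are of GRCm38.p6. Dividing the deposited counts by the RPM gave 22851004 to 31265701 clean reads, used for an alternative. Of the miRNAs, 62 come from more than 1 hairpin.

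Counts were scaled to the miRNA reads of a library, with 0.5 read added for log2 fold changes, whose SE cover counting error. Fisher's exact tests used scipy 1.17.1. edgeR 4.0.16 (filterByExpr, TMM, quasi-likelihood test, R 4.3.3) compared the genotypes, with DESeq2 1.42.0 as the other tool. Tests were fitted on the whole table. The Fisher rule was tried on simulated counts with sampling noise alone, which is less than these libraries had. edgeR's test was tried on simulated counts at the fitted dispersion and at a lower one, and recovery of the changes was required only at the lower. The pairing of siblings is that of the study's methods, and deviations of siblings from their genotype means correlated with r = 0.235 across 252 miRNAs, which are not replicates. No pair of libraries differed by sampling noise alone (chi-square per degree of freedom at least 574). Nothing states separate extraction or library batches. Whether a spread between mice is technical is not known, since each mouse gave 1 library.

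The miRNAs named are the 5 members, members of the lists by their counts, those of the REST list past a threshold, miR-211-5p and miR-33-5p, named after their values were seen, and the 3 nearest in pattern to each guide. The members and lists were chosen with earlier results of these data known. The alternatives were other library sizes, scaling to 1000000 reads, a minimum of 10 RPM, a limit of 2-fold, 5 added reads, the sibling block, DESeq2, library sizes without TMM, no filter and leaving out each mouse. The qRT-PCR and target predictions were not analysed here.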

Additional observations from a re-analysis of the deposited data

Results flagged for a closer look

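Scaled to total miRNA reads, every member lay on one side of 0 in the first sibling pair (APP4 against WT1) and on the other side in the second (APP3 against WT2). With 1 mouse per genotype in a pair, how the pairs differ was not tested. In the first and the second pair in turn, log2 fold changes were 0.29 and -0.16 for miR-26a-5p, 0.16 and -0.066 for miR-26b-5p, and 0.54 and -0.074 for miR-26b-3p. They were -0.13 and 0.21 for miR-26a-2-3p and -0.41 and 0.45 for miR-26a-1-3p, for which neither pair passed Fisher's exact test. The log2 ratio of miR-26a-5p to miR-26b-5p likewise differed by 0.13 between APP4 and WT1 and by -0.090 between APP3 and WT2. With TMM library sizes miR-26b-5p was lower in the AD mouse of both pairs, at -0.089 and -0.084, so its direction in the first pair rests on the scaling. In WT1 miR-26a-5p and miR-26b-3p were at their lowest, with 63786 and 5.18 RPM, and in WT2 miR-26b-3p was at its highest, with 9.01 RPM.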

How the results depend on the processing

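No member was called between the genotypes, or within a sibling pair under the other library sizes and added reads tried. For APP4 against WT1, 104 miRNAs were called, and 32 when scaled to 1000000 reads, 53 with a minimum of 10 RPM and 50 with a limit of 2-fold. For APP3 against WT2 the 61 called became 23, 30 and 23. edgeR's count of 0 became 2 with the sibling pair as a block, miR-100-5p and miR-409-5p, and 3 without WT1, 0 without WT2, 21 without APP3 and 5 without APP4, where the lone mouse is assumed to vary like the others. The sibling block gave a log2 fold change of -0.067 for miR-26a-5p and -0.086 for miR-26b-5p, and changed the call of no member.

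The sign of small differences turned. miR-26b-5p was -0.089 between APP4 and WT1 with TMM, and 0.0036 between APP3 and WT2 when the total left out the 10 most abundant miRNAs. Without TMM, the edgeR log2 fold change was 0.063 for miR-26a-5p, 0.052 for miR-26b-5p, 0.037 for miR-26a-2-3p and 0.015 for miR-26a-1-3p. With each mouse left out, it lay between -0.17 and 0.061 for miR-26a-5p, -0.13 and -0.055 for miR-26b-5p, -0.25 (without WT1) and 0.49 (without WT2) for miR-26b-3p, -0.28 and 0.055 for miR-26a-2-3p, and -0.43 and 0.18 for miR-26a-1-3p. The ratio of miR-26a-5p to miR-26b-5p, AD minus WT, was 0.24 and then lay between -1.93 (without WT1) and 2.40 (without WT2). That of miR-26b-5p to miR-26b-3p was -61.2 and lay between -174 and 51.3. The cause was not tested. Counting error was close to or above the spread between libraries for miR-26a-2-3p and miR-26a-1-3p, and below it for the other members.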
